A study of Mus musculus with 12 samples.

Results

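The 10 genes described here are factors of germline stem cell self-renewal: *Gfra1*, *Ret*, *Etv5*, *Bcl6b*, *Id4*, *Lhx1*, *Pou3f1*, *Zbtb16*, *Foxo1* and *Klf4*. They were chosen by name, and their rows were found by matching the RefSeq accessions of the count table to these symbols, which gave 15 of the 41388 listed transcripts and 10 of 24809 genes. The RNA of C57BL/6 mouse female germline stem cells (FGSCs) was sequenced in 12 libraries, 3 for each of 4 groups. KO was a *Stella*-knockout line made with CRISPR/Cas9 and a lentiviral guide vector, and KO-con was its control. Over was a line infected with a lentivirus carrying the *Stella* coding sequence, and Over-con carried the empty lentiviral vector. Because KO is 1 clone, loss of *Stella* and features of that clone cannot be told apart. In all 4 groups the cells were past passage 20 and grew on inactivated STO fibroblasts, a mouse feeder line, in medium with 10 ng/mL GDNF, 10 ng/mL leukemia inhibitory factor, 20 ng/mL EGF and 10 ng/mL basic FGF. *Stella*, also named *Dppa3*, had 0 counts in every library outside Over, where its mean was 30.4 CPM, so its loss in KO could not be seen in these counts.

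In the male germline several of these factors belong to the GDNF route and the others act beside it. GDNF, a ligand made by the niche, binds the anchored co-receptor GFRA1, which brings in the receptor tyrosine kinase RET. RET signals through SRC family kinases, PI3K-AKT and ERK, and this raises transcription factor genes that keep spermatogonial stem cells undifferentiated, among them *Etv5*, *Bcl6b*, *Id4*, *Lhx1* and *Pou3f1*. *Zbtb16* (PLZF) is a zinc finger transcription factor that maintains undifferentiated spermatogonia, FOXO1 is a forkhead factor that AKT keeps out of the nucleus, and KLF4 is a Krüppel-like factor used in reprogramming to pluripotency. The comparisons ask whether loss or gain of *Stella* moved the RNA of these factors in FGSCs, which were grown here with added GDNF.

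For *Etv5* and *Bcl6b* the study also measured RNA by RT-qPCR, and its primers are shown because they mark which parts of these transcripts that assay read.

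Etv5 forward: tcagtctgataacttggtgcttc

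Etv5 reverse: ggcttcctatcgtaggcacaa

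Bcl6b forward: ggctacgtccgagagttcac

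Bcl6b reverse: cttgtgcgctcttaggggt

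In the coding transcripts of the GENCODE annotation of mm9, each of the 4 primers matched 1 gene exactly. The *Etv5* primers lie on the minus strand of chromosome 16 in coding sequence, the forward one across the junction of exons 5 and 6 of 13 and the reverse one across exons 6 and 7, with a product of 162 bases. The forward primer matched 2 of 5 coding *Etv5* transcripts and the reverse primer 3 of 5. The *Bcl6b* primers lie within coding exon 2 of 9 on the minus strand of chromosome 11, the forward one from 70042609 to 70042628 and the reverse one from 70042503 to 70042521, with a product of 126 bases and no intron between them.

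The promoters of *Klf4* and *Foxo1* are also shown, as these were the only genes of the 10 with more than 100 counts in every library. Each is the RefSeq sequence of the 250 bases before the annotated start in GRCm38.p6, with every CpG, the dinucleotide that carries DNA methylation, in capitals. That of *Klf4* is on the minus strand at chr4:55532476-55532725 and holds 32 CpGs, and that of *Foxo1* is on the plus strand at chr3:52268087-52268336 and holds 20.

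Klf4: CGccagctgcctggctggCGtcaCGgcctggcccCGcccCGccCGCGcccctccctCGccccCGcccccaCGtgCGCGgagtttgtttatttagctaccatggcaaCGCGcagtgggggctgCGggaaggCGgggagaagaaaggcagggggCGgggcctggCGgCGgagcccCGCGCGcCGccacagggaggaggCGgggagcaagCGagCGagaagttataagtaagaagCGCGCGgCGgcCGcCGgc

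Foxo1: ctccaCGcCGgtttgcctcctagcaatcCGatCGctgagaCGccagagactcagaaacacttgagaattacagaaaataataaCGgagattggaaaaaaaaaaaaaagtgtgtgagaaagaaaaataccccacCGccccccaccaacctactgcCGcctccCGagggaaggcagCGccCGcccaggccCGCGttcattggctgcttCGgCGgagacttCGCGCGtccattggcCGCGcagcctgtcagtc

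Promoter sequences were found for 6 of the 10 genes, *Etv5* having 2. Over the window from 250 bases before to 50 after the start, *Klf4* had 40 CpGs, *Id4* 39, *Etv5* 37 and 19, *Foxo1* 31, *Lhx1* 31 and *Gfra1* 12, where the median over all 32851 promoters was 7. The GC box GGGCGG, searched on both strands, stood in 4 of these 7 promoters, against 35.7% of all promoters. The forkhead motif GTAAACA, searched in the same way, stood in 1 of the 7, the upstream *Etv5* promoter, against 3.65% of all. CpG-rich starts were thus found in genes with many reads (*Klf4*, *Foxo1*) and with hardly any (*Lhx1*).

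Library totals lay between 5611846 and 12866545 counts. A level is given in CPM, counts scaled to the size of the library after TMM normalization over the 12 libraries, and 3 counts, taken as the smallest amount shown, correspond to between 0.230 and 0.529 CPM in a library, a floor that covers counting error only. The labelled cell type was checked against its markers. Of 12 germ cell markers 8 had at most 3 counts in every library, among them *Ddx4* and *Dazl*, which have 2 listed transcripts each, and *Stra8* and *Mael*, which have 1. *Ifitm3* (Fragilis), which many other cells also express, was at 95.3 to 155 CPM by group mean, and *Sycp3* at 1.53 to 1.85. Of 6 pan-hematopoietic markers the factor *Spi1* was at 94.8 to 110.7 CPM and *Ptprc* at 40.5 to 58.8. *Cd34* was at 1.18 to 1.77 and *Tal1* at 0.471 to 1.25. *Runx1* and *Ikzf1*, which have several listed transcripts each, had 0 counts. Of 8 fibroblast markers the collagen *Col1a1* was at 306 to 465, while *Lum* and *Pdgfrb* had at most 3 counts in every library. Reads of the mouse feeders and of the FGSCs cannot be told apart in these counts. In bulk RNA, fewer cells of a type and less RNA per cell cannot be told apart either.

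**Figure D1:**
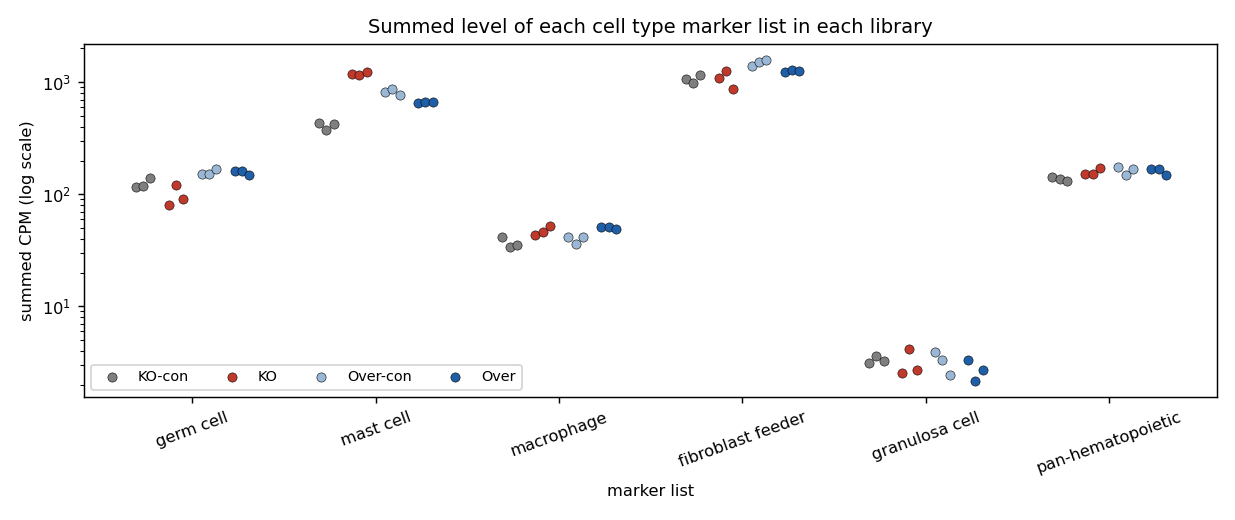
Summed CPM of each cell type marker list (y axis, log scale) in each of the 12 libraries, colored by group, with 1 point per library. The mast cell list was at 1150 to 1231 in KO and 372.5 to 432.1 in KO-con, most of it *Cpa3*. The fibroblast list overlapped between these groups.

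Of the 10 genes, 6 have 1 listed transcript (*Klf4*, *Foxo1*, *Id4*, *Bcl6b*, *Lhx1*, *Pou3f1*) and 4 have 2 or more (*Etv5*, *Zbtb16*, *Ret*, *Gfra1*). This bears on every low value, because genes with several listed transcripts had few counts in this table. Of all protein-coding genes, a mean of 1 CPM or more was reached by 50.6% with 1 listed transcript and by 23.3% with 2 or more. A count of 0 for *Gfra1*, *Ret*, *Zbtb16* or *Etv5* therefore says only that no read was assigned to that transcript.

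*Klf4* and *Foxo1* carried nearly all the reads counted on the 10 genes. Per kilobase of the longest coding transcript in GENCODE, which allows genes to be compared, the mean level over the 12 libraries was 29.65 CPM per kb for *Klf4*, 8.635 for *Foxo1* and 0.7285 for *Id4*. Among 11495 genes with 1 listed transcript and a known length, 80.8% were below *Klf4*, 65.4% below *Foxo1* and 50.8% below *Id4*. *Pou3f1* was at 0.09745 CPM per kb, *Lhx1* at 0.01016 and *Bcl6b* at 0.005411, and the floor of 3 counts lay between 0.0570 and 0.176 CPM per kb for these 3 genes.

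**Figure D2:**
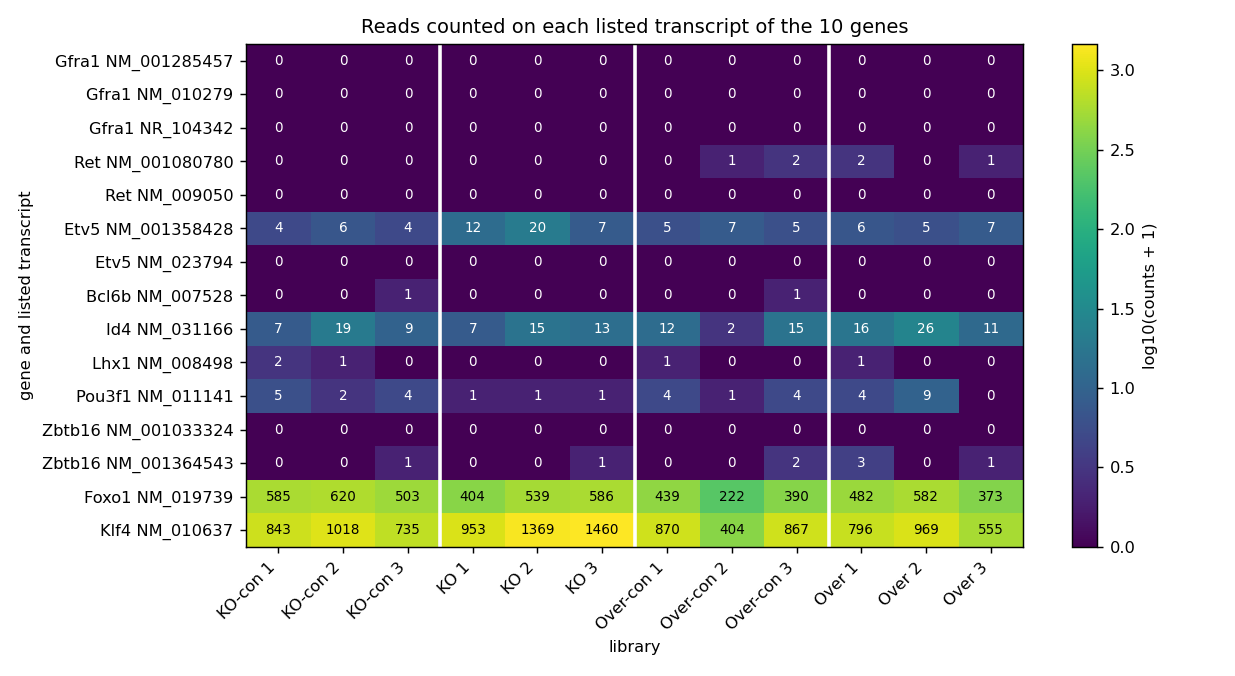
Reads counted on each of the 15 listed transcripts of the 10 genes (rows) in each of the 12 libraries (columns, grouped by line), with color giving log10(counts + 1). *Foxo1* and *Klf4* had at least 222 counts in every library, and the other 13 transcripts at most 26.

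The receptors of GDNF were at or near 0 in every library. *Gfra1* (mm9 chromosome 19, 58310094 to 58530399) has 3 listed transcripts, and each had 0 counts in all 12 libraries. *Ret* lies on chromosome 6 from 118101766 to 118147762. Its transcript NM_009050 had 0 counts throughout, and NM_001080780 had 0 counts in each KO and KO-con library, 0, 1 and 2 in Over-con and 2, 0 and 1 in Over. The groups overlapped or were all at 0, and no fold is given since every library was under the floor.

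Among the factors that GDNF is known to raise, *Etv5* (chromosome 16, 22381382 to 22439792) had reads on 1 of its 2 transcripts. NM_001358428 had 4, 6 and 4 counts in KO-con, 12, 20 and 7 in KO, 5, 7 and 5 in Over-con and 6, 5 and 7 in Over. Each KO library was above each KO-con library in CPM, at 0.636 to 1.74 against 0.414 to 0.538, and the Over and Over-con libraries overlapped. Libraries did not overlap between KO and KO-con for 30.5% of all transcripts tested. These counts were too low for the filter, and in the fit without a filter the log2 fold change in KO was 1.36 (standard error 0.53, edgeR adjusted p = 0.121). In the fit over 12 libraries, where *Etv5* passed the filter, the knockout effect exceeded the overexpression effect by 1.65 on the log2 scale (95% interval 0.10 to 3.20, edgeR adjusted p = 0.194). NM_023794 had 0 counts in all 12 libraries, and how reads common to the 2 transcripts were counted is not given in the sources used here.

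*Bcl6b* (chromosome 11, 70037630 to 70043300), a POZ domain repressor with 1 listed transcript, had 1 count in a KO-con library, 1 in an Over-con library and 0 in the other 10. A difference in *Bcl6b* RNA was not detectable at this depth in either line, since all 12 libraries were under the floor of 3 counts.

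*Id4*, an inhibitor of basic helix-loop-helix factors whose expression marks spermatogonial stem cells, was just above the floor. It lies on chromosome 13 from 48356796 to 48359405. It had 7, 19 and 9 counts in KO-con, 7, 15 and 13 in KO, 12, 2 and 15 in Over-con and 16, 26 and 11 in Over. The mean was 1.17 ± 0.494 CPM in KO-con, 1.10 ± 0.258 in KO, 1.01 ± 0.584 in Over-con and 1.55 ± 0.412 in Over (SD, n = 3 each), and all 4 groups overlapped. The log2 fold change was -0.09 in KO (95% interval -0.97 to 0.79, edgeR adjusted p = 0.925) and 0.52 in Over (-0.35 to 1.39, adjusted p = 0.655), so both intervals hold falls and rises.

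*Lhx1* (chromosome 11, 84331479 to 84338923), a LIM homeobox gene, had 2, 1 and 0 counts in KO-con, 1, 0 and 0 in Over-con, 1, 0 and 0 in Over and 0 in all KO libraries. *Pou3f1* (chromosome 4, 124334889 to 124337899), a POU homeobox gene, had 5, 2 and 4 counts in KO-con, 1, 1 and 1 in KO, 4, 1 and 4 in Over-con and 4, 9 and 0 in Over. The *Pou3f1* libraries of KO were all below those of KO-con, where 30.5% of all transcripts tested did not overlap. Each of these KO libraries held fewer than 3 counts, and the fit without a filter gave an adjusted p of 0.463 (edgeR). The Over libraries of *Pou3f1* ran from 0 to 9 counts and spanned the Over-con values.

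*Zbtb16* (chromosome 9, 48462416 to 48644050) had 0 counts on NM_001033324 in every library. NM_001364543 had 0, 0 and 1 counts in KO-con, 0, 0 and 1 in KO, 0, 0 and 2 in Over-con and 3, 0 and 1 in Over. No library was above the floor.

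*Klf4* (NM_010637; chromosome 4, minus strand, 55540013 to 55545347) was higher in the knockout line. It was at 87.3, 91.3 and 89.2 CPM in KO-con, 110.0, 119 and 133 in KO, 89.3, 71.2 and 84.3 in Over-con and 73.8, 74.3 and 59.4 in Over. Each KO library was above all 9 others, the KO-con libraries lay within 4 CPM of each other, and the Over and Over-con libraries overlapped. The mean rose to 120.5 ± 11.5 CPM in KO from 89.3 ± 1.96 in KO-con (SD, n = 3 each), a log2 fold change of 0.44 (standard error 0.08, 95% interval 0.27 to 0.62, edgeR adjusted p = 0.00203). *Klf4* was the 1 gene called of the 3 tested, where 11.8% of the 9457 transcripts tested were called, 5.83% as higher and 5.96% as lower. The rise did not reach the study's threshold of an absolute log2 fold change over 1. That threshold and an adjusted p under 0.05 were both passed by 1.7% of transcripts. Against the other control group, Over-con, the log2 fold change of KO was 0.56 (adjusted p = 0.00299).

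In the overexpressing line *Klf4* was at 69.2 ± 8.44 CPM against 81.6 ± 9.33 in Over-con (SD, n = 3 each), a log2 fold change of -0.24 (95% interval -0.45 to -0.03, unadjusted p = 0.0300 and adjusted p = 0.322 in edgeR). None of the 3 genes tested was called in this comparison by edgeR or by DESeq2, 1 had an unadjusted p under 0.05, and 1.65% of all transcripts tested were called, 0.766% as higher and 0.883% as lower. Measured against KO-con instead, Over had a log2 fold change of -0.36 (adjusted p = 0.000808). In 1 fit of all 12 libraries, the knockout effect minus the overexpression effect was 0.68 (standard error 0.14, 95% interval 0.39 to 0.96, edgeR adjusted p = 0.00299), and 8.64% of transcripts were called in that test, 4.12% as higher and 4.52% as lower. The controls themselves had a log2 difference in *Klf4* of 0.13, KO-con over Over-con (95% interval -0.05 to 0.31, adjusted p = 0.363). The order of the group means was therefore KO, KO-con, Over-con and Over, in which KO was separated from its neighbor by the test and the other neighbors were not.

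Some marker lists moved with the *Klf4* difference between KO and KO-con and some did not. The 11 mast cell markers summed to 1150 to 1231 CPM in KO and 372.5 to 432.1 in KO-con, most of it the carboxypeptidase gene *Cpa3*. Of 5 mast cell markers tested 3 were higher in KO and none lower, with a median log2 fold change of 1.30. Over all transcripts 5.83% were called higher and 5.96% lower, which holds beside the counts of the other lists here too. The 3 were *Cpa3* (1.55, edgeR adjusted p = 2.62e-09), the chymase gene *Cma1* (1.79, 0.00834) and *Hdc*, which encodes histidine decarboxylase (1.30, 0.0267), the last 2 at means of 3.80 and 4.18 CPM in KO. *Gata2* (-0.34) and *Mitf* (-0.41), named after their values were seen, had negative values that did not pass. *Fcer1a*, *Tpsab1*, *Tpsb2* and *Mcpt4*, which have 1 listed transcript each, had at most 3 counts in every library. The 12 germ cell markers summed to 79.96 to 120.2 CPM in KO and 115 to 139.8 in KO-con, and these ranges overlapped. Most of each sum was *Ifitm3*, at means of 95.3 and 120.7 CPM, which did not pass (-0.33, edgeR adjusted p = 0.110). Of 3 germ cell markers tested 1 was lower, *Prdm1* (BLIMP1), at 0.313 ± 0.108 CPM in KO against 1.85 ± 0.138 (-2.48, edgeR adjusted p = 0.00147), and the median was -0.33. DESeq2 called 0 of the 3, and the KO mean of *Prdm1* lay near the floor of 3 counts. *Prdm1* was also higher in KO-con than in Over-con (1.40, edgeR adjusted p = 0.0175). The 8 fibroblast markers summed to 868 to 1250 CPM in KO and 988 to 1169 in KO-con, with *Pdgfra* (transcript NM_001347719, -1.56, edgeR adjusted p = 0.00998) and *Dcn* (-0.41, 0.0224) lower among 6 tested. The other tested *Pdgfra* transcript did not pass (-0.41, edgeR adjusted p = 0.543). *Thy1* (0.31), *Col3a1* (0.18) and *Col1a2* (0.04) had positive values and *Col1a1* (-0.12) a negative one, and none of these passed. The 7 macrophage markers summed to 43.04 to 51.63 CPM in KO and 33.98 to 41.34 in KO-con, most of it *Cd68*. Of 3 tested 1 was higher, *Cd68* (0.48, edgeR adjusted p = 0.0158). *Cd14* (-0.48, edgeR adjusted p = 0.187) had a negative value and *Csf1r* (0.66, 0.304) a positive one, and neither passed. The 6 pan-hematopoietic markers summed to 150.2 to 170.2 CPM in KO and 130.5 to 143.3 in KO-con. Of 4 tested 0 were called: *Spi1* (0.23, edgeR adjusted p = 0.103), *Tal1* (1.01, 0.142), *Cd34* (0.56, 0.442) and *Ptprc* (0.11, 0.497). In Over against Over-con, where 1.65% of all transcripts tested were called, 1 of 2 macrophage markers was called. *Cd68* was higher (0.51, edgeR adjusted p = 0.00645), and *Cd14* (-0.20) did not pass. Of 3 mast cell markers tested *Cpa3* was lower (-0.30, edgeR adjusted p = 0.0247), while *Hdc* (0.82) and *Gata2* (0.63) had positive values that did not pass. Of 3 germ cell markers tested *Ifitm3* was lower (-0.31, edgeR adjusted p = 0.0396), *Dppa3* itself was higher and *Sycp3* (-0.25) did not pass. The marker values were not recomputed with libraries left out, and the part of any of these cell types in the *Klf4* difference was not tested.

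**Figure D3:**
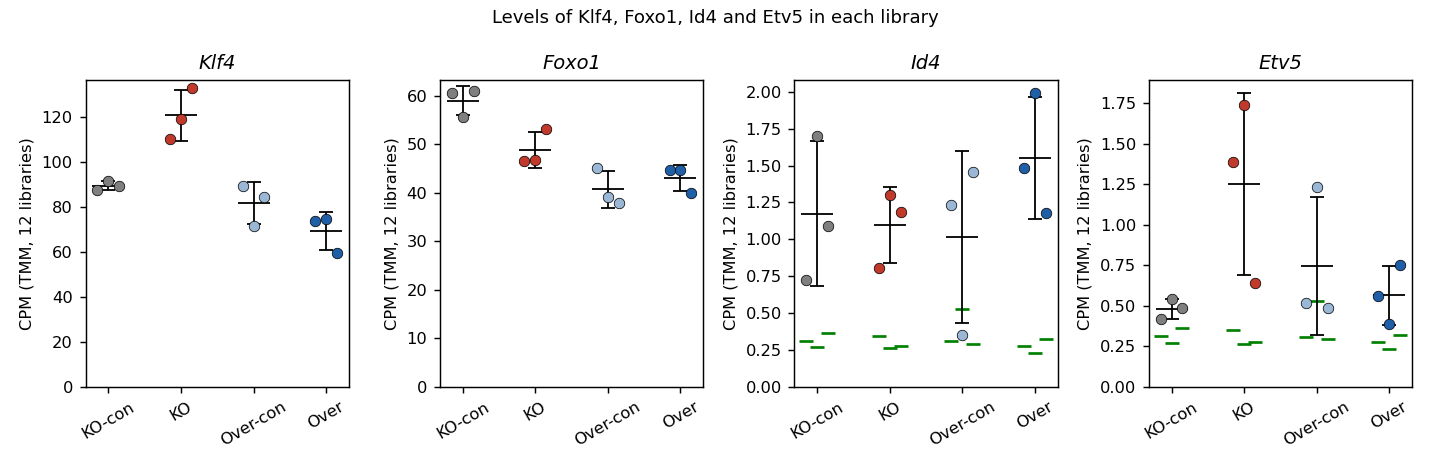
CPM of *Klf4*, *Foxo1*, *Id4* and *Etv5* (NM_001358428) in each library (points), with the mean and SD of each group (bars, n = 3) and, for *Id4* and *Etv5*, the floor of 3 counts in each library (green dashes). The KO libraries of *Klf4* lay at 110.0 to 133 CPM, above the other 9, and the KO-con libraries of *Foxo1* at 55.6 to 61.05, above the other 9. Of all transcripts tested, 30.5% did not overlap between KO and KO-con and 32.1% between KO-con and Over-con.

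*Foxo1* (NM_019739; chromosome 3, plus strand, 52072259 to 52154031) differed most between the control groups. It was at 60.6, 55.6 and 61.05 CPM in KO-con, 46.6, 46.8 and 53.3 in KO, 45.1, 39.15 and 37.9 in Over-con and 44.7, 44.6 and 39.95 in Over. The KO-con libraries were above all 9 others, and the KO libraries lay below KO-con and above Over. Libraries did not overlap for 32.1% of transcripts between KO-con and Over-con and for 30.5% between KO and KO-con. The share for KO against Over was not computed. The mean was 59.1 ± 3.03 CPM in KO-con and 40.7 ± 3.83 in Over-con (SD, n = 3 each), a log2 difference of 0.54 (standard error 0.10, 95% interval 0.34 to 0.74, edgeR adjusted p = 0.000395), and *Foxo1* was the 1 of 3 genes called where 16.3% of transcripts were, 8.08% as higher in KO-con and 8.19% as lower. Its difference did not reach an absolute log2 fold change of 1, which 2.16% of transcripts passed together with an adjusted p under 0.05. Marker lists differed between these controls as well. The fibroblast list summed to 988 to 1169 CPM in KO-con and 1390 to 1577 in Over-con, with *Col3a1* lower in KO-con (log2 difference -0.99, edgeR adjusted p = 3.58e-08). The mast cell list summed to 372.5 to 432.1 CPM against 761.6 to 865.4, most of it *Cpa3* (-1.0, edgeR adjusted p = 1.33e-08). *Cpa3* was the 1 called of 4 mast cell markers tested. *Hdc* (0.06), *Gata2* (0.25) and *Mitf* (0.36) had positive values that did not pass. The germ cell list summed to 115 to 139.8 CPM against 152.7 to 166.9. Most of the germ cell sum was *Ifitm3* (-0.36, edgeR adjusted p = 0.00590), while *Prdm1* was higher in KO-con (1.40, adjusted p = 0.0175). The part of these lists in the *Foxo1* difference was not tested.

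In the knockout *Foxo1* was at 48.9 ± 3.78 CPM, a log2 fold change from KO-con of -0.26 (95% interval -0.45 to -0.07) that did not pass after adjustment over all transcripts (unadjusted p = 0.00985, edgeR adjusted p = 0.0697). It passed with all 12 libraries in 1 fit (adjusted p = 0.0494) and without KO replicate 3 (-0.34, adjusted p = 0.0279), and against Over-con its sign turned (0.27, adjusted p = 0.181). In the overexpression it was at 43.1 ± 2.72 CPM, a log2 fold change of 0.09 (95% interval -0.11 to 0.29, adjusted p = 0.752). Against KO-con the sign turned here too, to -0.45 (adjusted p = 9.06e-05). The difference between the effects was -0.35 (95% interval -0.62 to -0.08, edgeR adjusted p = 0.101). By group mean the order was KO-con, KO, Over and Over-con, in which the libraries of Over and Over-con overlapped.

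**Figure D4:**
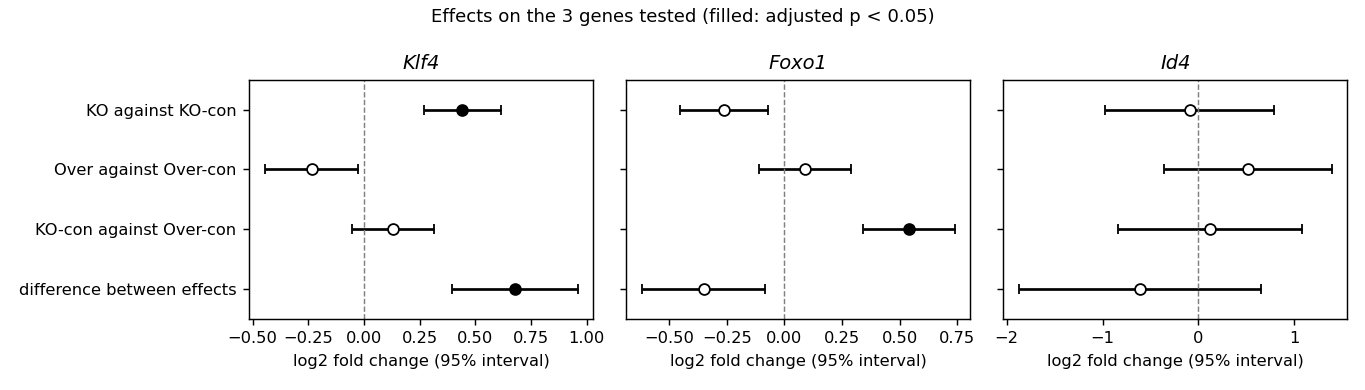
Log2 fold change (x axis) with its 95% interval for *Klf4*, *Foxo1* and *Id4* in the 3 pairwise comparisons and in the test of the knockout effect minus the overexpression effect, with filled points where the edgeR adjusted p was under 0.05. *Klf4* was called in KO and in the difference between effects, *Foxo1* between the controls and *Id4* in none of the 4.

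The transcripts whose log2 CPM followed *Klf4* most closely over the 12 libraries, among 6719 with a mean of at least 5 CPM, were *Emp2* (Pearson's r = 0.967), *Hexa* (0.958) and *Slc35f6* (0.945). For *Foxo1* they were *Polr3b* (0.967), *Dlst* (0.946) and *Mapk1ip1l* (0.944). The 12 points come from 4 lines and share their depths, and these values are the highest of many.

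The rest of the pathway was read from lists written by hand. Of 26 GDNF ligands, receptors and RET adaptors, 10 have 1 listed transcript, and *Gfra3* was the one of these at 3 counts or fewer in every library. In KO 1 of the 10 tested was called, where 11.8% of transcripts were, with a median log2 fold change of 0.06 against 0.01 over all transcripts tested. It was *Plcg1*, the phospholipase C that binds activated RET, at 226 ± 5.53 CPM against 192 ± 9.51 in KO-con (log2 fold change 0.25, edgeR adjusted p = 0.0265). The *Plcg1* call was lost with the replicate block (adjusted p = 0.0805), against Over-con (0.113) and without any 1 of the KO-con libraries or KO replicate 2 or 3 (up to 0.117). In Over 0 of 10 were called by edgeR or DESeq2, and 1 had an unadjusted p under 0.05.

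Of 30 genes of the PI3K-AKT-FOXO route 18 were tested. In KO 2 rose, 1 fell and 15 did not pass, with a median of 0.01, where over all transcripts 5.83% were called higher and 5.96% lower. *Pik3ip1*, an inhibitor of PI3K, was at 25.6 ± 2.46 against 19.6 ± 1.99 CPM in KO-con (0.40, edgeR adjusted p = 0.0441). The one that fell was *Klf2*, a FOXO1 target in lymphocytes, at 12.7 ± 2.84 against 18.8 ± 0.754 CPM (-0.56, edgeR adjusted p = 0.0254). Neither call held without any 1 of the KO-con libraries or without KO replicate 2, where the adjusted p rose to at most 0.213 for *Pik3ip1* and 0.118 for *Klf2*, nor against Over-con (0.474 and 0.872). *Pik3ip1* was also not called without KO replicate 3 (adjusted p = 0.119), with the replicate block (0.0683) or by DESeq2 (0.0858). The *Foxo1* paralogs *Foxo3* and *Foxo4*, named after their values were seen, differed from KO-con by -0.12 and 0.04 on the log2 scale and did not pass. In Over 0 of 18 were called by edgeR or DESeq2, and 1 had an unadjusted p under 0.05.

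Of 21 receptors and feedback genes of FGF, EGF and LIF signaling, the other supplements of the medium, 12 were tested and 2 rose in KO, where 5.83% of all transcripts were called higher, with a median of 0.04. *Dusp4*, a nuclear phosphatase of ERK, was at 52.3 ± 5.80 CPM against 40.1 ± 0.997 in KO-con (0.40, edgeR adjusted p = 0.0146), and *Mapk3*, which encodes ERK1, at 152.6 ± 11.7 against 126 ± 7.75 (0.28, adjusted p = 0.0283). *Dusp4* was not called without KO-con replicate 1 or 2 or KO replicate 3 (adjusted p up to 0.0707). *Mapk3* was not called without replicate 2 or 3 of either group (up to 0.130), with the replicate block (0.0674) or against Over-con (0.920). In Over 0 of 12 were called by edgeR or DESeq2, and 3 had an unadjusted p under 0.05.

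Of 39 other factors of germline stem cells, 26 have 1 listed transcript, and 8 of these, *Lin28a*, *Sohlh1*, *Sohlh2*, *Utf1*, *Neurog3*, *Pax7*, *Sox3* and *Epcam*, had at most 3 counts in every library. In KO 3 of 14 tested fell and none rose, with a median log2 fold change of -0.14, where 5.96% of all transcripts were called lower. *Id2*, which like *Id4* encodes an inhibitor of helix-loop-helix factors, was at 184.3 ± 4.84 against 334 ± 26.8 CPM (-0.85, edgeR adjusted p = 1.34e-06). *Ccnd2*, a D-type cyclin of the passage into S phase, was at 844 ± 28.8 against 1077 ± 7.54 CPM (-0.34, adjusted p = 0.00294). *Taf4b*, a gonad-enriched subunit of TFIID, was at 76.0 ± 6.52 against 99.8 ± 3.34 CPM (-0.39, adjusted p = 0.00501). In Over 1 of 15 was called, where 1.65% of all transcripts were. It was *Ccnd2*, which was lower here as well, at 959 ± 7.01 against 1140 ± 14.9 CPM (-0.24, edgeR adjusted p = 0.0389). That call did not hold with the replicate block (adjusted p = 0.170) or when any 1 of 5 of the 6 libraries was left out (adjusted p up to 0.264).

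The controls bear on these values as they do on *Foxo1*. *Id2* was 0.66 higher on the log2 scale in KO-con than in Over-con (edgeR adjusted p = 3.99e-06) and *Taf4b* 0.51 higher (adjusted p = 0.000135). Measured against Over-con, *Id2* in KO differed by -0.20 (adjusted p = 0.185) and *Taf4b* by 0.11 (adjusted p = 0.607), so neither call held with that control. *Klf2* and *Klf7* were higher in KO-con than in Over-con too, by 0.48 (edgeR adjusted p = 0.0190) and 0.30 (adjusted p = 0.0174), the latter not called without any 1 of the KO-con libraries or Over-con replicate 2 (up to 0.0815).

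Among 39 paralogs of the 10 genes 18 were tested, and in KO 1 rose and 5 fell, with a median of -0.17, where 5.83% of all transcripts were called higher and 5.96% lower. Of the Krüppel-like factors, *Klf7* fell to 49.0 ± 1.46 from 77.4 ± 1.73 CPM (-0.65, edgeR adjusted p = 6.12e-05). *Klf2* and *Id2*, given above, fell, and *Klf6* and *Klf13*, named after their values were seen, fell as well (-0.22 and -0.30, adjusted p = 0.0447 and 0.0351). Of the other Krüppel-like factors tested, *Klf3* (0.24, adjusted p = 0.0546) and *Klf11* (0.30, 0.117), also named after their values were seen, had positive values that did not pass, and the scalings tried turned none of the directions of *Klf4*, *Klf2* and *Klf7*. *Lhx5* rose to 27.0 ± 3.75 from 18.8 ± 1.82 CPM (0.53, edgeR adjusted p = 0.0122), a call lost without KO-con replicate 2 or 3 or KO replicate 2 (adjusted p up to 0.0635) and against Over-con (0.621). The paralogs *Pou3f2*, *Pou3f3* and *Pou3f4* of *Pou3f1* and *Gfra3* of *Gfra1* had at most 3 counts in every library. In Over 0 of 18 were called by edgeR or DESeq2, and 1 had an unadjusted p under 0.05.

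**Figure D5:**
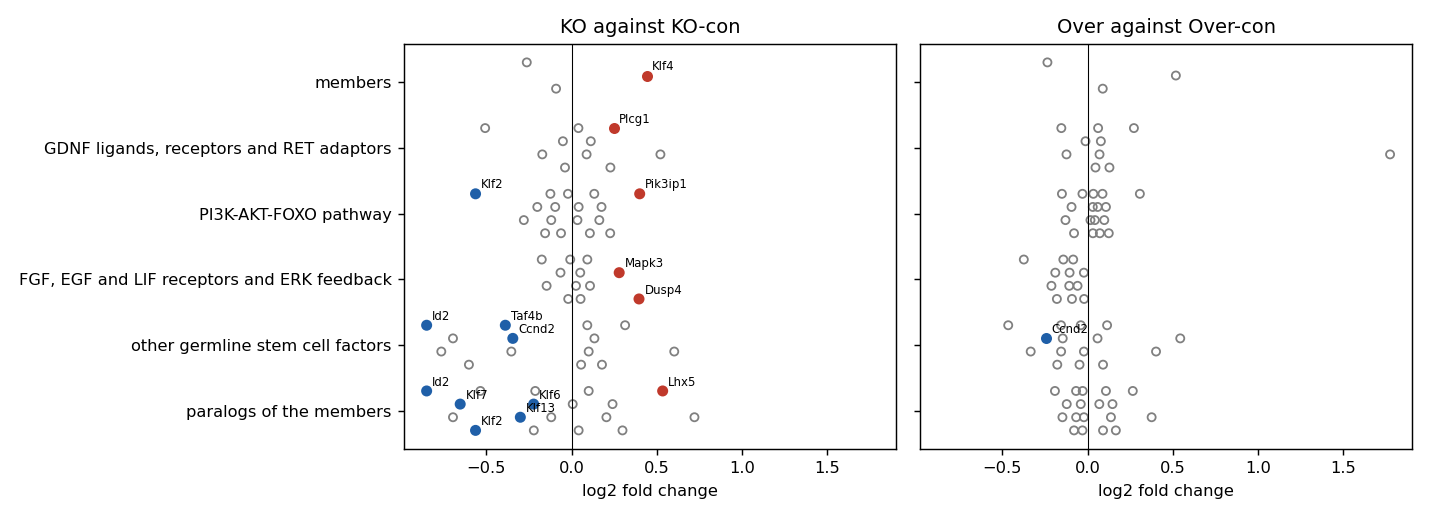
Log2 fold change (x axis) of the tested genes of the 10 factors and of the 5 pathway lists (rows) in KO against KO-con (left) and Over against Over-con (right), with filled, named points where the edgeR adjusted p was under 0.05. *Ccnd2* was the only gene of these lists called in Over, and *Id2*, *Klf2* and others stand in 2 lists where they belong to both.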

How the data were processed

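RNA-seq counts of 12 FGSC libraries were analysed, with groups and replicate numbers taken from the sample titles. Reads were trimmed and mapped by the authors with HISAT2 (mm9), and the deposited values are unnormalized counts per RefSeq transcript. The strand setting, the annotation release and the treatment of reads shared between transcripts are not given in the sources used here, and nothing states whether the 3 libraries of a group were separate cultures, so p-values measure the spread between these libraries only. A RefSeq table (GRCm38.p6) gave symbols for 41181 transcripts (99.5%). Positions and transcript lengths came from GENCODE on NCBIM37 (mm9), and promoter sequences from RefSeq on GRCm38.p6.

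Each comparison used edgeR 4.0.16 (TMM, filterByExpr, glmQLFit, glmQLFTest) over all transcripts, with Benjamini-Hochberg adjustment, and a gene was called at an adjusted p under 0.05. The difference between effects was a contrast over all 12 libraries. The study's tool, DESeq2 1.42.0, was an alternative. For a gene with several tested transcripts, lists used the one with the most counts. An exact permutation test of 1 gene, at 3 against 3, cannot give a p below 0.10, so none is given. The 10 genes, the lists and the tests were chosen with earlier results of these data known. All 10 genes are named, and of each list, markers included, the called genes, at most 4, with the lowest adjusted p in KO or Over. Other listed markers are given beside these, after their values were seen. 1 listed gene is counted but not reported here.

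Alternatives were other scalings and filters, a fit over all 12 libraries, a block for the replicate number, counts summed per gene, a fold threshold, the other control group and each library left out. Of 200 transcripts given a log2 change of 1 in simulated data for KO against KO-con, 172 were recovered with 11 false calls among 9484 tested. All transcripts had the same simulated spread, and smaller changes, such as that of *Klf4*, were not simulated. Other tools were R 4.3.3, Python 3.11.15 and matplotlib 3.10.9.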

Additional observations from a re-analysis of the deposited data

Results flagged for a closer look

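The knockout and overexpression effects differed for 6 of the genes named among the 10 and the pathway lists, and for 3 called cell type markers. The test was 1 fit of all 12 libraries with edgeR and adjustment over all transcripts, of which 8.64% were called. All of these genes but *Klf4* had been named because they were called in KO or Over. The contrast uses those values again, so the number of these genes is not a separate result. *Klf4* had a knockout effect 0.68 above its overexpression effect on the log2 scale (adjusted p = 0.00299), and *Dusp4* one 0.49 above (adjusted p = 0.0300). *Mapk3* had a difference of 0.39 (adjusted p = 0.0178). With 1 library left out the adjusted p reached 0.101 for *Dusp4* and 0.0683 for *Mapk3*. The differences were negative for *Id2*, at -0.81 (adjusted p = 2.55e-05), *Klf7*, at -0.51 (adjusted p = 0.00386), and *Taf4b*, at -0.50 (adjusted p = 0.00534). Among the markers it was 1.86 for *Cpa3* (adjusted p = 2.53e-10), -2.44 for *Prdm1* (adjusted p = 0.0274) and -1.54 for the *Pdgfra* transcript NM_001347719 (adjusted p = 0.0436). For the other tested *Pdgfra* transcript it was -0.13 (adjusted p = 0.911). Each of the first 6 was tested by the contrast itself, and none of their overexpression effects had an adjusted p under 0.05 on its own. The knockout and overexpression effects have separate control groups, which differed from each other (adjusted p under 0.05) for each of the first 6 but *Klf4*.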

How the results depend on the processing

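For *Klf4* the rise in KO stayed between 0.36 and 0.56 on the log2 scale and passed the adjusted p of 0.05 under every alternative tried other than the fold threshold, and the difference between effects stayed between 0.56 and 0.76 and passed in each. With the replicate number as a block the *Klf4* rise was 0.44 (adjusted p = 0.00412). Same-numbered libraries did not deviate together (correlations of -0.152 to 0.0568), so the numbers were not taken as pairs. The transcripts called numbered 1115 in KO, 155 in Over, 1516 between controls and 856 for the difference between effects. In KO the count was 161 with the fold threshold, 737 with the other control, 837 with the replicate block and between 613 and 1271 with 1 library left out (613, 664 and 722 without KO-con replicates 1, 2 and 3, and 715 without KO replicate 2). In Over it was 302 without a filter, 67 with the replicate block, 16 with the fold threshold, 2026 with the other control and between 48 and 719 with 1 library left out, the highest without Over-con replicate 3 and 48 to 90 without each of the others. Between controls it was 201 with the fold threshold and 882 to 1988 with 1 library left out (882 without KO-con replicate 1, 998 without Over-con replicate 1), and for the difference between effects 536 to 1126 (536 and 541 without Over replicates 2 and 1, 556 without Over-con replicate 1, 564 without KO-con replicate 1). The number of the 10 genes with at least 1 CPM in each group was 3, and 2 to 3 with 1 library left out.

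With the other control group the sign turned for *Foxo1* in KO (0.27) and Over (-0.45), *Id4* in KO (0.020), *Taf4b* in KO (0.11) and Over (-0.39) and *Mapk3* in Over (0.14). With 1 library left out, signs of genes that were not called turned: *Id4* ran from -0.35 to 0.32 in KO and from -0.28 to 0.43 between controls, turning without KO-con replicate 2 (0.32 and -0.28), KO replicate 1 (0.07) or Over-con replicate 2 (-0.17), *Klf2* from -0.19 to 0.053 in Over (0.053 without Over-con replicate 3, 0.01 without Over replicate 3), *Id2* from -0.072 to 0.025 in Over (0.025 without Over-con replicate 3), and *Pik3ip1* from -0.082 to 0.20 for the difference between effects (-0.082 without Over-con replicate 3, -0.025 without Over replicate 3). The cause was not tested. Of the 10 genes, only *Klf4*, *Foxo1*, *Id4* and *Etv5* gave values under alternatives, and 195 of these 207 kept their direction and their side of the threshold. Most of them belonged to tests above that were not called, where keeping the side means staying uncalled. Of 606 values of the other named genes 509 kept both. The library with the fewest counts, Over-con replicate 2 (5611846), limits the low genes most.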
